A study of Homo sapiens and Mus musculus with 4 samples.

Results

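The genes of nucleotide synthesis, salvage and one-carbon metabolism were followed in 4 lymphoid cell lines through 37 listed human enzyme genes and the mouse genes of the same symbol. All 37 human genes were found, and 35 had a mouse row of the same symbol, which gave 72 members among the 60736 human and mouse genes of the table. The mouse gene of CTPS1 is annotated as Ctps, and its levels are given beside the members without being counted with them. The mouse gene of PNP was not analysed here. The members fell into 7 roles, from the supply of deoxynucleotides to the folate cycle.

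Messenger RNA was sequenced in bulk from established lines, with 1 library for each line. The human lines, Jurkat and TALL104, both derive from T-cell leukaemias, and the study takes Jurkat as CD4 and TALL104 as CD8 T cells. Of the mouse lines, EL4 derives from a T-cell lymphoma, whereas IVA12 was made by fusing a B cell to a myeloma cell and is a hybridoma. The study takes EL4 as CD4 T cells and IVA12 as B cells. Per the study's methods, Jurkat was grown in RPMI medium, TALL104 in IMDM with interleukin-2, EL4 in RPMI with 2-mercaptoethanol and IVA12 in DMEM, all with fetal bovine serum. The labels give no genetic change or drug treatment for any line. Each line stands for its cell type through a single culture, and the lines of a species differed in medium, so that line, cell type and medium cannot be told apart. The study described TALL104 cells as smaller than those of the other lines and harder to culture, with limited viability and slow growth.

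Levels are given in FPKM, the fragments on a gene scaled by its length and by the library size. The library totals behind the FPKM lay between 25286728 and 34783047 reads, recovered from the steps between FPKM values. Shares of reads are given of these totals, which need not equal the reads sequenced. Intervals in parentheses are 95% intervals for the counting of those reads. Such an interval covers counting error alone, because many reads can stem from 1 molecule and no second culture was sequenced, and no test between lines was made. A member was taken as detected at 1 FPKM or more. Between lines, log2 ratios were formed on FPKM + 1, and a gene was counted as higher in a line when that ratio passed 1.5-fold. Ratios given as "-fold" are of the FPKM themselves.

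The defining markers matched the labelled lines in part. The T-cell receptor component CD3E was at 166 FPKM in Jurkat and 233 FPKM in TALL104, and Cd3e was at 63.6 FPKM in EL4 against 0.0275 FPKM in IVA12. CD4 was at 0.985 FPKM in Jurkat and Cd4 at 0.208 FPKM in EL4, both below the detection threshold. In TALL104 CD8A was at 28.3 FPKM while CD8B was at 0.114 FPKM. IVA12 held the plasma-cell genes Jchain at 1289 FPKM and Sdc1 at 60.2 FPKM, while the B-cell factor Pax5 was at 0.156 FPKM.

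Dividing cells make deoxynucleotides by reducing ribonucleotides with ribonucleotide reductase and by methylating deoxyuridylate with thymidylate synthase. The ribonucleotides come from de novo purine and pyrimidine synthesis or from salvage of free bases and nucleosides. Purine synthesis and thymidylate synthase draw carbon units from folate, which are supplied largely by serine. In lymphocytes these routes rise with activation and division, and loss of adenosine deaminase or purine nucleoside phosphorylase is known to cause immune deficiency.

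Most of the listed genes were higher in Jurkat in the human pair. Of the 37 members, 33 were higher in Jurkat, 3 were higher in TALL104 (SAMHD1, RRM2B and CTPS2) and 1, NT5E, lay within 1.5-fold. The same threshold was passed toward Jurkat by 13.8% and toward TALL104 by 11.4% of all 32738 human genes, and by 34.2% and 28.4% of the 12214 human genes at or above 1 FPKM in either line, a filter that 36 of the 37 members passed. The median log2 ratio of the members was 1.72, beside 0.10 over those 12214 genes. The members summed to 2049 FPKM in Jurkat and 528 FPKM in TALL104, and held 0.748% (0.745% to 0.751%) and 0.224% (0.222% to 0.226%) of the reads. Fewer dividing cells in a culture and less RNA of these genes per cell cannot be told apart in bulk libraries.

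The mouse lines showed no such shift. Of the 35 mouse members, 4 were higher in EL4 (Rrm2, Ctps2, Prps2 and Ada), 10 were higher in IVA12 and 21 lay within 1.5-fold. Over all 27998 mouse genes 9.75% were higher in EL4 and 11.2% in IVA12, and over the 10801 at or above 1 FPKM in either line 23.8% and 26.5%, a filter that 34 of the 35 members passed. The median log2 ratio of the members was 0.03, and that of those 10801 genes was -0.04. The members held 0.747% of the reads in EL4 and 0.878% in IVA12, so that of the 4 libraries TALL104 had the lowest share.

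**Figure D1:**
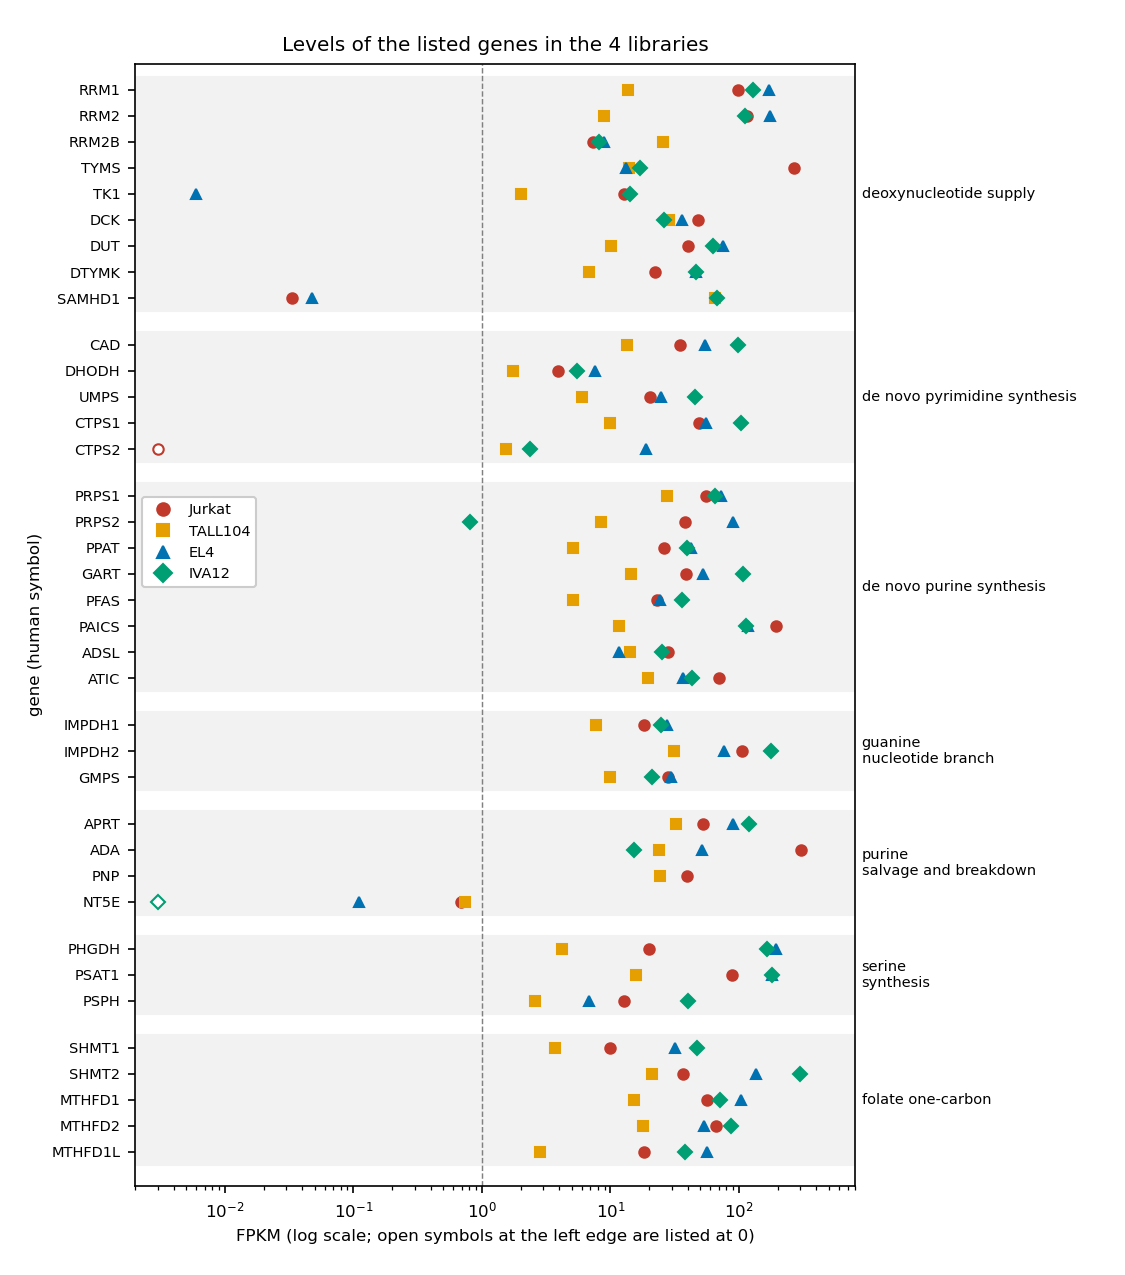
FPKM (log axis) of the 37 listed genes in each library, grouped by role, with mouse Ctps drawn in the CTPS1 row, no mouse point in the PNP row, and the dashed line at 1 FPKM. TALL104 (squares) lies leftmost of the 4 libraries in most rows, with SAMHD1 (65.3 FPKM) and RRM2B (25.8 FPKM) among the exceptions, and CTPS2 in Jurkat and Nt5e in IVA12 are open symbols listed at 0.

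The members were among the more abundant genes of 3 libraries. Their median level was 36.9 FPKM in Jurkat, 46.2 FPKM in EL4 and 45.2 FPKM in IVA12, against medians over all detected genes of 8.64, 10.7 and 10.2 FPKM. In TALL104 the median member was at 11.7 FPKM and the median detected gene at 8.62 FPKM. Detection was reached by 34 of 37 members in Jurkat, 36 of 37 in TALL104, 32 of 35 in EL4 and 33 of 35 in IVA12. The lower share of TALL104 was therefore a matter of level and not of fewer members detected. The highest members in Jurkat were ADA, TYMS, PAICS, RRM2 and IMPDH2, and in TALL104 they were SAMHD1, APRT, IMPDH2, DCK and PRPS1. In EL4 they were Phgdh, Psat1, Rrm2, Rrm1 and Shmt2, and in IVA12 Shmt2, Psat1, Impdh2, Phgdh and Rrm1.

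The genes that supply deoxynucleotides held both the highest and the lowest human ratios. TYMS, thymidylate synthase, was at 267 FPKM (263 to 270.1) in Jurkat and 13.9 FPKM (13.1 to 14.8) in TALL104, a 19.1-fold difference (17.9 to 20.4). It ranked 80 of the 10857 genes detected in Jurkat and 3546 of the 10822 detected in TALL104. TYMS lies on chromosome 18 (hg19, 657653 to 673578), and 3261 bases of it overlap ENOSF1 on the opposite strand. Per the study's methods the bulk libraries were stranded, but reads of the pair can be told apart only where strand was used in counting. Whether it was used is not stated. Mouse Tyms was at 13.3 FPKM in EL4 and 17.0 FPKM in IVA12, a log2 ratio of -0.33. The recovered gene lengths were 2470 bases for TYMS and 6089 bases for Tyms. FPKM of the human and the mouse gene thus rest on unlike gene models, and their levels were not compared across species.

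Ribonucleotide reductase joins a large subunit, RRM1, with a small subunit that is either RRM2, made in dividing cells, or RRM2B, which also serves cells that are not dividing. RRM1 was at 98.2 FPKM in Jurkat and 13.7 FPKM in TALL104, and Rrm1 was at 171 and 129 FPKM in EL4 and IVA12. RRM2 (hg19, chromosome 2, 10260825 to 10351851) was at 116 FPKM (115 to 118) in Jurkat and 8.89 FPKM (8.41 to 9.40) in TALL104, a 13.1-fold difference (12.3 to 13.9). Rrm2 was at 174 FPKM in EL4 and 111 FPKM in IVA12, a log2 ratio of 0.64 that just passed the threshold of 1.5-fold. RRM2B went the other way in the human lines, at 7.35 FPKM in Jurkat and 25.8 FPKM in TALL104, 3.51-fold higher (3.31 to 3.73) in TALL104. Rrm2b was at 8.86 and 8.15 FPKM in EL4 and IVA12.

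The balance of the small subunits was therefore reversed in 1 library. RRM2 exceeded RRM2B in FPKM by 15.8-fold (15.0 to 16.7) in Jurkat, 19.6-fold (18.7 to 20.6) in EL4 and 13.7-fold (12.9 to 14.5) in IVA12, whereas in TALL104 RRM2B exceeded RRM2 by 2.90-fold (2.72 to 3.09). CDKN1A, a cyclin-dependent kinase inhibitor that holds cells out of division, was also higher in TALL104, at 0.356 FPKM in Jurkat and 13.8 FPKM in TALL104. Its part in the level of RRM2B was not tested.

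A promoter window of RRM2 is shown because it holds 3 copies of CCAAT, the box bound by NF-Y that many cell-cycle genes carry, and 1 of DUT, whose product feeds thymidylate synthase, because it holds 2 E2F-type elements, the site bound by the E2F factors of the cell cycle. The windows are RefSeq sequence on GRCh38.p14, a later build than that of the deposited table, and each spans 300 bases around an annotated start, most of it upstream. Where a gene had several windows, the one with the most motifs was taken, and the other 3 windows of DUT held no E2F-type element. Motifs, found on either strand, are in capitals. The RRM2 window is chr2:10122489-10122788 on the plus strand, and the DUT window is chr15:48331947-48332246 on the plus strand.
RRM2: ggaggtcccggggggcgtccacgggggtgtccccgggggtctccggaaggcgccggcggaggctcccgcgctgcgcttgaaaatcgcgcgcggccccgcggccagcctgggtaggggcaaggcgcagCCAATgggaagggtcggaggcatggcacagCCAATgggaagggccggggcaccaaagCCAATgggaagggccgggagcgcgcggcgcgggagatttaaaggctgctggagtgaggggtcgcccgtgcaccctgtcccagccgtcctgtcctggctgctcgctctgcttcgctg
DUT: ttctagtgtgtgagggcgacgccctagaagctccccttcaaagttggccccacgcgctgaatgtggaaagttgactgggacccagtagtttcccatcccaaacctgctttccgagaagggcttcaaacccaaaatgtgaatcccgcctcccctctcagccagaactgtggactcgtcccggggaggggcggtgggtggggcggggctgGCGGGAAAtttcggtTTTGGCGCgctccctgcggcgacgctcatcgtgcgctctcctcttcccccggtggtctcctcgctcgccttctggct
CCAAT was present in 45.7% of the 46 windows of members and in 34.6% of all 35116 windows. The E2F-type element, searched as TTTGGCGC or TTTCCCGC, was present in 10.9% of member windows (DCK, DUT, GART, PRPS2 and TYMS) and in 2.27% of all windows. Member windows held a median of 26 CG pairs and all windows a median of 14, which bears on motifs that contain CG. A match describes the letters only, and no binding was measured.

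SAMHD1, which breaks down deoxynucleotide triphosphates, was the member with the largest gap in the human pair and had as large a gap in the mouse pair. It was at 0.0331 FPKM (6 reads) in Jurkat and 65.3 FPKM (9647 reads) in TALL104, 1973-fold higher (906 to 5377) in TALL104. Samhd1 was at 0.0476 FPKM (14 reads) in EL4 and 66.9 FPKM (15481 reads) in IVA12, 1406-fold higher (838 to 2572) in IVA12. The gene was thus near 0 in 1 T-cell line of each species and at 65.3 to 66.9 FPKM in the other line of the pair. Each library also held some reads on genes of the absent species, so the 6 and 14 reads may be stray. The sizes of these folds are therefore uncertain beyond their counting intervals, and the source of the few reads was not tested. It was the highest of all members in TALL104, ranked 444 there. SAMHD1 lies on chromosome 20 (hg19, 35518632 to 35580296) and Samhd1 on chromosome 2 (mm10, 157097533 to 157135265). The promoter window of SAMHD1 (RefSeq, GRCh38.p14, chr20:36951659-36951958, minus strand) is shown because the gene went against the other members. It holds 2 copies of CCAAT, in capitals, a box found in the windows of 16 of the 32 matched members.
SAMHD1: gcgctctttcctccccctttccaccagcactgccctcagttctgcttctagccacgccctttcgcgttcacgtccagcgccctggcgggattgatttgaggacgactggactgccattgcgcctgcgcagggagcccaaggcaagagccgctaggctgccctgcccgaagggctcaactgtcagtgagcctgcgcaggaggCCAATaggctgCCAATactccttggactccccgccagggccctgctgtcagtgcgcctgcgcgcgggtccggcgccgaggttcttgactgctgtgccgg

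The kinases that salvage deoxynucleosides differed from each other. TK1, the thymidine kinase of the cytosol, was at 12.7 FPKM (11.8 to 13.6) in Jurkat and 2.01 FPKM (1.65 to 2.44) in TALL104. In EL4 Tk1 had 1 read, 0.00598 FPKM, against 1863 reads and 14.2 FPKM in IVA12, a ratio of 2369-fold (425 to 93604). The size of this ratio rests on that 1 read, which may be stray. Tk1 (mm10, chromosome 11, 117815526 to 117826092) is overlapped on the opposite strand over 169 bases by Afmid and over 10567 bases by Gm20708. Gm20708 is annotated as protein-coding and spans all of Tk1. Their reads can be told apart only where strand was used in counting. All 3 other lines had Tk1 or TK1 at 2.01 FPKM or more, so EL4 stood apart. DCK, deoxycytidine kinase, varied least of the human genes in this role, at 48.0 FPKM in Jurkat and 28.5 FPKM in TALL104, with Dck at 35.8 FPKM in EL4 and 26.1 FPKM in IVA12. In the human annotation DCK overlaps MOB1B on the same strand.

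DUT, which removes deoxyuridine triphosphate and so provides the substrate of thymidylate synthase, was at 40.3 FPKM in Jurkat and 10.2 FPKM in TALL104, with Dut at 75.0 FPKM in EL4 and 62.9 FPKM in IVA12. DTYMK, the kinase that follows thymidylate synthase, was at 22.0 and 6.84 FPKM in the human lines. Dtymk was at 46.2 FPKM in EL4 and 46.4 FPKM in IVA12, a difference within the counting interval. Of the 9 genes of deoxynucleotide supply, 7 were higher in Jurkat and 2 in TALL104, with a median log2 ratio of 1.88. In the mouse lines 1 was higher in EL4, 2 in IVA12 and 6 lay within 1.5-fold, with a median of 0.11.

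**Figure D2:**
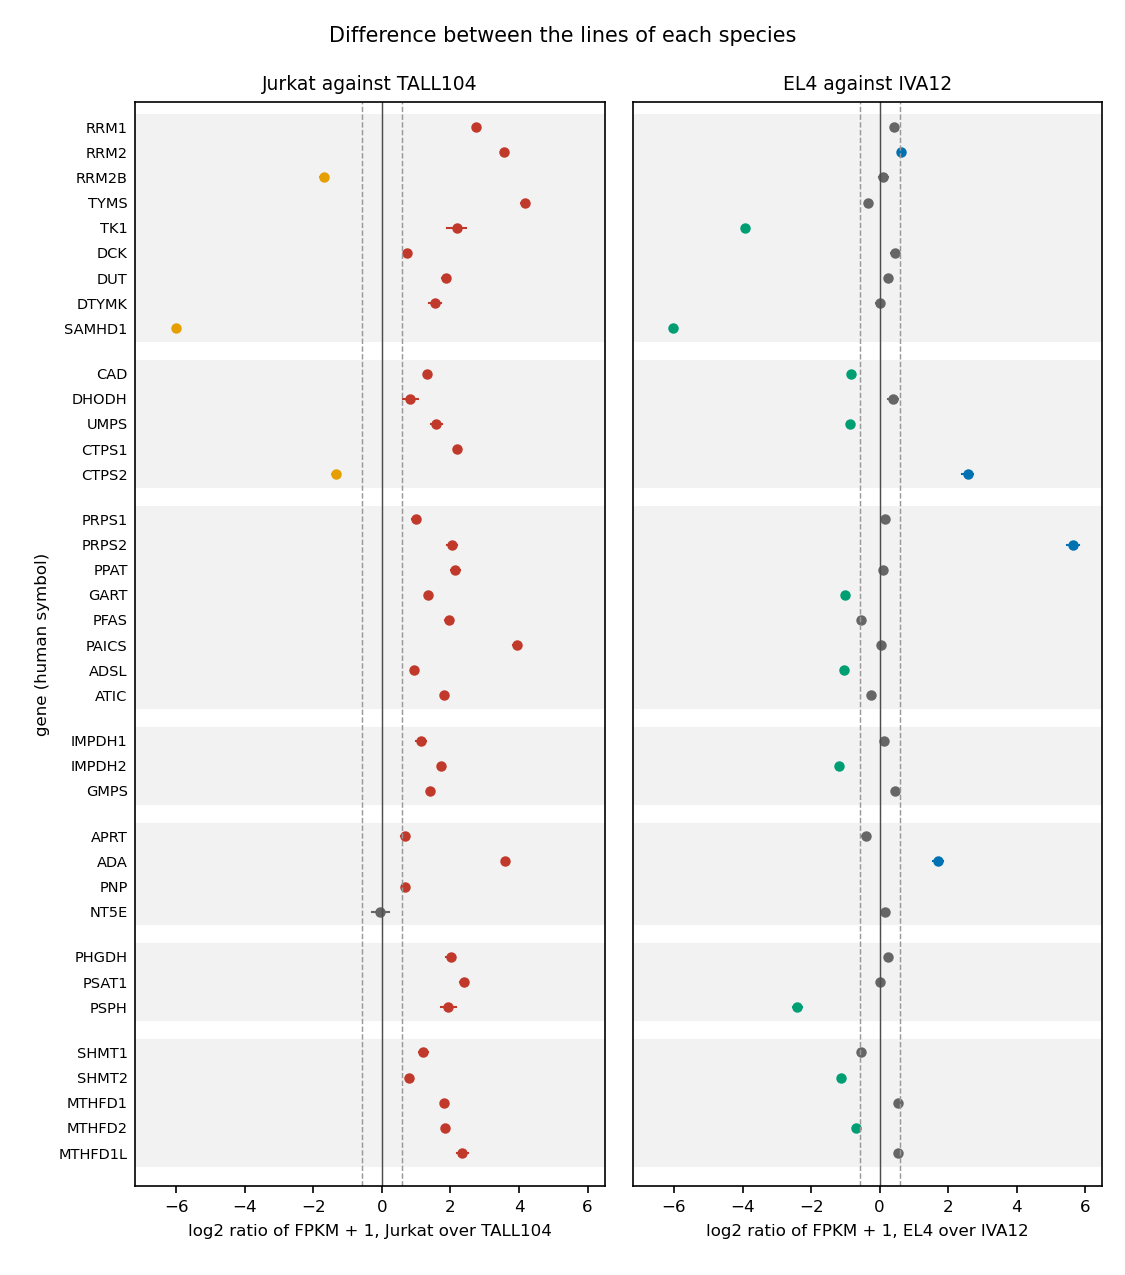
Log2 ratio of FPKM + 1 of each member, Jurkat over TALL104 (left, 37 genes) and EL4 over IVA12 (right, 35 genes), with 95% counting intervals as bars and dashed lines at 1.5-fold; colours mark the line in which the gene was higher and grey marks genes within 1.5-fold. On the left 33 points lie right of the dashed lines, and on the right 21 points lie between them, while SAMHD1 lies at -6.00 and -6.02.

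De novo pyrimidine synthesis was higher in Jurkat for each gene but CTPS2. CAD, the protein that carries out the first reactions, was at 34.9 FPKM in Jurkat and 13.5 FPKM in TALL104. DHODH, the mitochondrial dehydrogenase of the route, was the lowest detected gene of the role in Jurkat, at 3.91 FPKM against 1.76 FPKM in TALL104. UMPS, which forms uridine monophosphate, was at 20.2 and 6.04 FPKM. The mouse genes went the other way for CAD and UMPS: Cad was at 54.4 and 97.5 FPKM in EL4 and IVA12, and Umps at 24.6 and 45.2 FPKM. Dhodh was at 7.54 and 5.51 FPKM. CAD and UMPS were thus higher in Jurkat among the human lines and higher in the B-lineage line among the mouse lines.

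CTP synthase, which makes cytidine triphosphate from uridine triphosphate, is encoded by CTPS1, on which lymphocyte expansion is known to depend, and by CTPS2. CTPS1 was at 49.2 FPKM in Jurkat and 9.95 FPKM in TALL104, a 4.94-fold difference (4.69 to 5.21). CTPS2 had 0 reads in Jurkat and 241 reads, 1.54 FPKM, in TALL104. In Jurkat 3 reads, the limit that a count of 0 allows, would be 0.0157 FPKM. Mouse Ctps, not counted with the members, was at 55.3 and 104 FPKM in EL4 and IVA12, and Ctps2 at 18.8 and 2.35 FPKM. The ratio of the first gene over the second was 6.45 (5.63 to 7.42) in TALL104, 2.94 (2.81 to 3.07) in EL4 and 44.3 (39.3 to 50.02) in IVA12, so EL4 had the largest part of the second gene. Of the 5 human genes of the role, 4 were higher in Jurkat and 1 in TALL104, and of the 4 mouse genes 1 was higher in EL4 and 2 in IVA12.

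All 8 genes of de novo purine synthesis were higher in Jurkat, with a median log2 ratio of 1.89. The route starts from phosphoribosyl pyrophosphate, which is made by PRPS1 and PRPS2. PRPS1 was at 55.4 FPKM in Jurkat and 27.5 FPKM in TALL104, and PRPS2 at 38.2 and 8.52 FPKM. Mouse Prps1 was at 72.4 FPKM in EL4 and 64.6 FPKM in IVA12, whereas Prps2 was at 89.1 FPKM (11099 reads) in EL4 and 0.807 FPKM (79 reads) in IVA12. This 111-fold gap (88.6 to 139.7) was the widest toward EL4 among the mouse members. PRPS1 exceeded PRPS2 by 1.45-fold in Jurkat and 3.23-fold in TALL104, and Prps1 exceeded Prps2 by 80.0-fold (64.03 to 101.4) in IVA12, while in EL4 Prps2 was the higher by 1.23-fold (1.19 to 1.27).

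PPAT, the amidotransferase that commits phosphoribosyl pyrophosphate to the route, and PAICS, which carries out a pair of later steps, lie head to head on chromosome 4 (hg19, PPAT 57259528 to 57301781 on the minus strand, PAICS 57301907 to 57330744 on the plus strand). PAICS was at 194 FPKM (191 to 197) in Jurkat and 11.7 FPKM (10.8 to 12.6) in TALL104, 16.6-fold higher (15.4 to 17.9) in Jurkat, where it ranked 122. PPAT was at 26.0 FPKM in Jurkat and 5.09 FPKM in TALL104, 5.11-fold higher (4.74 to 5.52). The neighbours thus shared their direction and differed in level by far more than their counting intervals. Mouse Paics was at 117 FPKM in EL4 and 114 FPKM in IVA12, within the counting interval, and Ppat was at 42.4 and 39.7 FPKM, so neither gene differed past 1.5-fold. The mouse pair overlaps by 272 bases in the annotation.

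A window around a PAICS start is shown because it is also most of the PPAT promoter window. It was the PAICS window with the most motifs. The RefSeq windows of the genes on GRCh38.p14, chr4:56435502-56435801 on the plus strand for PAICS and chr4:56435566-56435865 on the minus strand for PPAT, share 236 bases. The capitals mark CACGTG, the E-box bound by MYC and related factors, which lies in the shared part. The other windows of PAICS held no E-box.
PAICS: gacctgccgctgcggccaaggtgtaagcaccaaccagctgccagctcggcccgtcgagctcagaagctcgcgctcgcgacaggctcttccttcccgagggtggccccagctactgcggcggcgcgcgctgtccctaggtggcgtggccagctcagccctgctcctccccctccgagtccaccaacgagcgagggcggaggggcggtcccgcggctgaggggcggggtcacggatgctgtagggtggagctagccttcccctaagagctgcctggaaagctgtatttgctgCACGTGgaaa
The E-box was present in 19.6% of the 46 windows of members and in 7.26% of all 35116 windows, and the members that had it were ATIC, DCK, DHODH, MTHFD1, MTHFD1L, PAICS and PPAT. The 9 member windows with it include 3 overlapping windows of MTHFD1L and the site shared by PAICS and PPAT. MYC itself was at 96.8 FPKM in Jurkat and 20.4 FPKM in TALL104, and Myc was at 51.9 FPKM in EL4 and 195 FPKM in IVA12. Its part in the levels of the members was not tested.

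The remaining steps of purine synthesis were also higher in Jurkat. GART, which takes up a folate-bound carbon unit, was at 38.6 FPKM in Jurkat and 14.5 FPKM in TALL104, and PFAS, the next amidotransferase, at 22.9 and 5.11 FPKM. ADSL, which releases fumarate, was at 28.3 and 14.2 FPKM, and ATIC, which closes the ring and uses the other folate unit, at 70.5 and 19.5 FPKM. The mouse lines differed step by step. Gart was at 52.9 FPKM in EL4 and 108 FPKM in IVA12, Adsl at 11.7 and 25.0 FPKM, Pfas at 24.5 and 36.0 FPKM, and Atic at 36.5 and 43.4 FPKM. Gart and Adsl passed 1.5-fold toward IVA12, Pfas and Atic did not, and the median log2 ratio of the 8 mouse genes was -0.11. In the human annotation ADSL overlaps SGSM3 on the same strand.

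The guanine nucleotide branch runs from inosine monophosphate through IMP dehydrogenase and GMPS. IMPDH2, the isozyme that proliferating lymphocytes raise, was at 105 FPKM in Jurkat and 31.1 FPKM in TALL104, and Impdh2 at 76.4 FPKM in EL4 and 177 FPKM in IVA12. IMPDH1 was at 18.4 and 7.78 FPKM in the human lines, and Impdh1 at 27.5 and 24.9 FPKM in the mouse lines. GMPS, which makes guanosine monophosphate, was at 27.8 and 9.97 FPKM, and Gmps at 29.4 and 21.2 FPKM. IMPDH2 exceeded IMPDH1 in every library, by 5.69-fold in Jurkat, 3.99-fold in TALL104, 2.77-fold in EL4 and 7.10-fold in IVA12. Of the read-length windows, 22.5% of those of IMPDH2 and 31.3% of those of Impdh2 also occur in transcripts of other annotated genes. Part of their level can depend on how such reads were counted, which is not stated. In the human annotation used here ENSG00000290315 overlaps IMPDH2 on the same strand over 5103 bases. The shared windows of IMPDH2 can thus belong to the same locus. That annotation is later than the one the study names for its reference, so the deposited counts need not have included ENSG00000290315.

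Purine salvage and breakdown had the lowest median of the human roles, 0.68, and its members differed widely. ADA, adenosine deaminase, had the highest level of any member, at 303 FPKM (299.5 to 306.4) in Jurkat, where it ranked 65, against 24.0 FPKM (23.0 to 25.1) in TALL104. This was a 12.6-fold difference (12.0 to 13.2). Ada was at 51.7 FPKM in EL4 and 15.3 FPKM in IVA12, 3.38-fold higher (3.12 to 3.66) in EL4. ADA, RRM2 and PRPS2 were the 3 genes that passed 1.5-fold toward Jurkat and also toward EL4. In the human annotation ADA overlaps PKIG on the opposite strand over 39352 bases.

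The other salvage enzymes were closer between lines. APRT, which recovers adenine, was at 52.8 FPKM in Jurkat and 32.7 FPKM in TALL104, and Aprt was at 89.8 FPKM in EL4 and 119 FPKM in IVA12. PNP, purine nucleoside phosphorylase, was at 39.6 and 24.5 FPKM in Jurkat and TALL104. APRT and PNP, with log2 ratios of 0.68 and 0.67, fell within 1.5-fold under either scaling tried, both at 0.57, which left ADA as the only salvage gene past 1.5-fold. NT5E, the surface enzyme that forms adenosine outside the cell, was below detection in all 4 libraries, at 0.687 FPKM in Jurkat, 0.738 FPKM in TALL104 and 0.111 FPKM in EL4. Nt5e was listed at 0 in IVA12, where 3 reads would be 0.0141 FPKM. NT5E was the only human member whose counting interval of the ratio, 0.688 to 1.26, included 1.

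**Figure D3:**
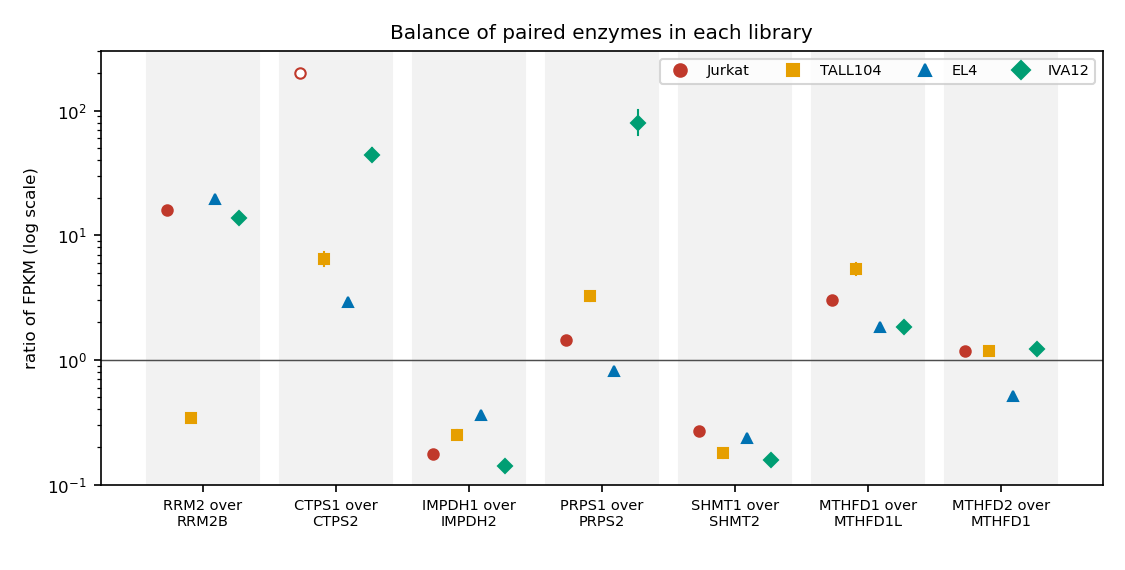
Ratio of the FPKM of paired enzymes (log axis) in each library, with 95% counting intervals as bars, for 7 pairs; the open circle at the top marks Jurkat CTPS1 over CTPS2, where CTPS2 is listed at 0 and no ratio exists. RRM2 over RRM2B lies at 0.345 in TALL104 and between 13.7 and 19.6 in the other libraries, and PRPS1 over PRPS2 reaches 80.0 in IVA12.

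The serine route, which makes serine from a glycolytic intermediate, was higher in Jurkat than in TALL104 at all 3 steps. In FPKM its first 2 genes were higher still in the mouse lines, though on gene models of other lengths. PHGDH, the first enzyme, was at 20.1 FPKM in Jurkat and 4.24 FPKM in TALL104, and Phgdh was at 195 FPKM in EL4 and 166 FPKM in IVA12. PSAT1, the aminotransferase, was at 87.7 and 15.7 FPKM, and Psat1 was at 181 FPKM in both mouse lines. PSPH, the phosphatase of the last step, was at 12.7 and 2.58 FPKM in the human lines. Psph was at 6.78 FPKM in EL4 and 40.1 FPKM in IVA12, 5.92-fold higher (5.52 to 6.36) in IVA12, so that the mouse lines lay within 1.5-fold at the first steps and differed at the last. Exact copies of 27.8% of the read-length windows of Phgdh lie in other annotated transcripts.

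The folate genes split between the mitochondrion and the cytosol. In the mitochondrion SHMT2 moves a carbon unit from serine to folate, MTHFD2 oxidises it and MTHFD1L releases it as formate, and in the cytosol MTHFD1 and SHMT1 take these steps in the other direction or in parallel. SHMT2 was at 36.9 FPKM in Jurkat and 20.9 FPKM in TALL104, with Shmt2 at 137 FPKM in EL4 and at 297 FPKM in IVA12, where it was the highest member. MTHFD2 was at 66.7 and 17.9 FPKM, with Mthfd2 at 53.5 and 87.4 FPKM. MTHFD1L was at 18.4 and 2.81 FPKM, with Mthfd1l at 56.1 and 38.4 FPKM. In the mouse lines Shmt2 and Mthfd2 were therefore higher in IVA12 past 1.5-fold, and Mthfd1l was not.

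In the cytosol MTHFD1 was at 56.1 FPKM in Jurkat and 15.1 FPKM in TALL104, and Mthfd1 was at 104 FPKM in EL4 and 71.1 FPKM in IVA12. SHMT1 was at 9.92 and 3.73 FPKM, and Shmt1 at 32.0 and 47.1 FPKM. The mitochondrial SHMT2 exceeded the cytosolic SHMT1 in every library, by 3.72-fold in Jurkat, 5.60-fold in TALL104, 4.26-fold in EL4 and 6.31-fold in IVA12. MTHFD2 exceeded MTHFD1 by 1.19-fold in Jurkat, 1.18-fold in TALL104 and 1.23-fold in IVA12, and in EL4 Mthfd1 was the higher by 1.94-fold (1.88 to 2.004). MTHFD1 exceeded MTHFD1L by 3.05-fold in Jurkat, 5.39-fold in TALL104 and 1.85-fold in both mouse lines. All 5 human folate genes were higher in Jurkat, with a median log2 ratio of 1.82. Of the mouse genes 2 were higher in IVA12 and 3 lay within 1.5-fold, with a median of -0.54.

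MTHFD1L was the single matched member whose promoter windows held TGATGNAAN, a form of the amino-acid response element that ATF4 binds, in 3 overlapping windows, so that it was present in 6.52% of member windows and 3.61% of all windows. ATF4 was at 172 FPKM in Jurkat and 151 FPKM in TALL104, and Atf4 at 147 FPKM in EL4 and 249.6 FPKM in IVA12. Its part in the levels of the members was not tested. Promoter windows were matched for 32 of the 37 genes. Those not matched were ADSL, IMPDH2, PSPH, RRM2B and SHMT2.

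The pairs were set side by side over the 35 genes measured in both species. Of these genes, 3 were higher in Jurkat and in EL4 (RRM2, PRPS2 and ADA), 9 were higher in Jurkat and in IVA12 (TK1, CAD, UMPS, GART, ADSL, IMPDH2, PSPH, SHMT2 and MTHFD2), and 19 were higher in Jurkat while the mouse lines lay within 1.5-fold. The 3 genes that were higher in TALL104 had 3 different mouse outcomes, with Samhd1 higher in IVA12, Ctps2 higher in EL4 and Rrm2b within 1.5-fold. NT5E was within 1.5-fold in both pairs. Because most of the 35 genes were higher in Jurkat, most genes called toward either mouse line had to fall in the first counts. These counts therefore say nothing further of the genes named, and the share of all genes with such outcomes in both species was not computed. The order of levels over these 35 genes was most alike in EL4 and IVA12, with a Spearman rho of 0.74, followed by 0.64 for Jurkat and EL4 and 0.57 for Jurkat and TALL104, and was least alike in TALL104 and EL4, at 0.31. These are descriptions across genes, which are not independent of each other, and libraries of 1 species share the gene models behind their FPKM.

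Genes of cell division moved with the human members. All 12 proliferation genes of the list were higher in Jurkat, with a median log2 ratio of 2.61. The same was true of 13.8% of all human genes and of 34.2% of those at or above 1 FPKM in either line. MKI67, a marker of cycling cells, was at 60.6 FPKM in Jurkat and 11.1 FPKM in TALL104, CDK1, the mitotic kinase, at 71.2 and 3.96 FPKM, and PCNA, the replication clamp, at 223 and 94.7 FPKM. In the mouse lines 4 of the 12 were higher in EL4, none was higher in IVA12, and the median was 0.43. Of mouse genes at or above 1 FPKM in either line, 23.8% were higher in EL4 and 26.5% in IVA12. Mki67 was at 108 FPKM in EL4 and 161 FPKM in IVA12, Cdk1 at 93.5 and 53.1 FPKM, and Pcna at 236 and 122 FPKM. The proliferation list therefore lay toward the same line as the members in the human pair, where its median was above theirs. In the mouse pair it did not, since its called genes lay toward EL4, while 4 members lay toward EL4 and 10 toward IVA12. The part of cell division in the levels of the members was not tested.

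**Figure D4:**
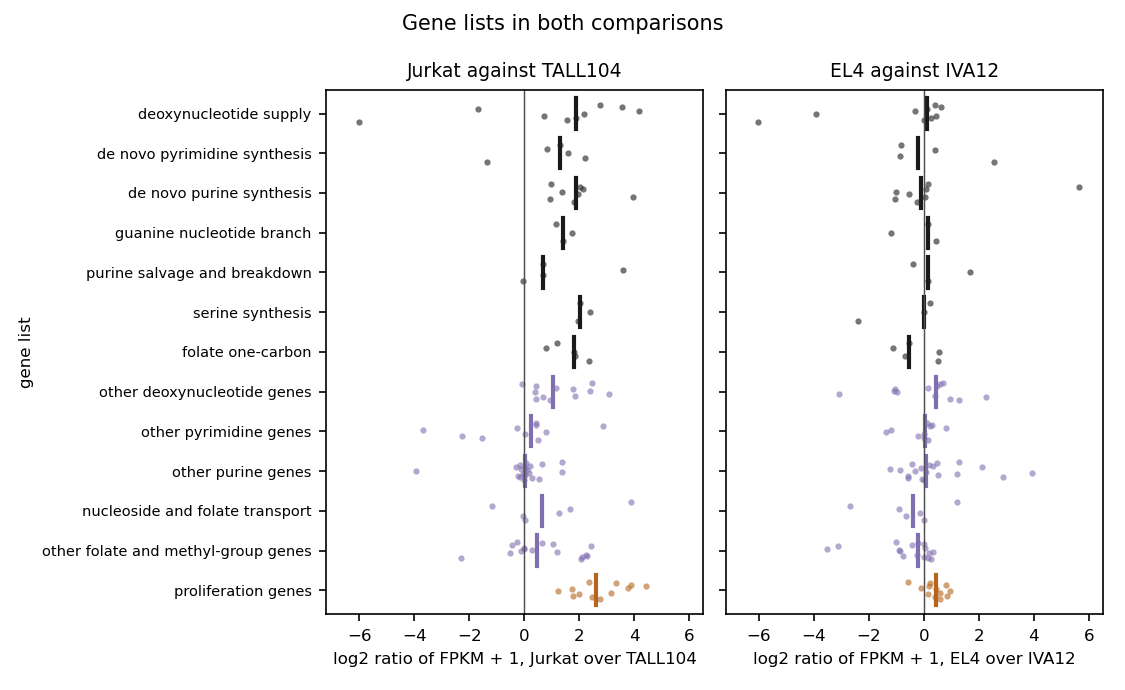
Log2 ratio of FPKM + 1 of every gene (points) and the median (bars) of the 7 roles of the members (black), 5 lists of other genes of these pathways (purple) and the proliferation genes (brown), for Jurkat over TALL104 (left) and EL4 over IVA12 (right). On the left the medians of the roles run from 0.68 to 2.01 and that of the proliferation genes is 2.61; on the right the medians of the roles run from -0.54 to 0.15.

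Other genes of the same pathways were counted in the same way. Of 63 further genes of deoxynucleotide, pyrimidine, purine, folate and transport function, 24 were higher in Jurkat, 6 in TALL104 and 33 lay within 1.5-fold, with a median log2 ratio of 0.28. Of all human genes 13.8% were higher in Jurkat and 11.4% in TALL104. Among human genes at or above 1 FPKM in either line, a filter not applied to the 63, these shares were 34.2% and 28.4%. The 12 further deoxynucleotide genes came closest to the members, with 8 higher in Jurkat, none higher in TALL104 and a median of 1.05. The 19 further purine genes lay mostly within 1.5-fold, 15 of 19, with a median of 0.03. In the mouse lines 12 of the 63 were higher in EL4, 17 in IVA12 and 34 within 1.5-fold, with a median of 0.00. Of all mouse genes 9.75% were higher in EL4 and 11.2% in IVA12, and of those at or above 1 FPKM in either line 23.8% and 26.5%.

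HPRT1, which recovers hypoxanthine and guanine, was at 61.1 FPKM in Jurkat and 23.1 FPKM in TALL104, and Hprt was at 206 FPKM in EL4 and 84 FPKM in IVA12. ADK, adenosine kinase, was at 9.06 and 8.62 FPKM, and Adk at 124 and 88.6 FPKM. MTAP, which salvages the adenine of methylthioadenosine, had 0 reads in Jurkat and 6 reads, 0.0265 FPKM, in TALL104, whereas Mtap was at 93.8 FPKM in EL4 and 40.4 FPKM in IVA12. MTAP was thus below detection in both human lines and Mtap was above it in both mouse lines. CDA, cytidine deaminase, had 1 read in Jurkat and 0 reads in TALL104, and Cda had 0 reads in both mouse lines.

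The 3 further genes highest toward Jurkat were SLC29A1, a nucleoside transporter (33.1 and 1.31 FPKM), NME4, a mitochondrial nucleoside diphosphate kinase (19.3 and 1.39 FPKM), and UCK2, uridine-cytidine kinase (28.0 and 2.98 FPKM). The 3 furthest toward TALL104 were AK1, adenylate kinase (0.216 and 17.5 FPKM), UPP1, uridine phosphorylase (0.320 and 15.9 FPKM), and AMT of the glycine cleavage system (0.813 and 7.91 FPKM). In the mouse lines those furthest toward EL4 were Ak4, a mitochondrial adenylate kinase (42.3 and 1.86 FPKM), Nt5c2, a nucleotidase (51.3 and 6.18 FPKM), and Glrx, glutaredoxin, which can supply electrons to ribonucleotide reductase (40.01 and 7.53 FPKM). Those furthest toward IVA12 were Aldh1l2, a mitochondrial folate dehydrogenase (0 and 10.5 FPKM), Ggh, which trims folate polyglutamates (0 and 7.73 FPKM), and Nme4 (0.0219 and 7.59 FPKM). NME4 thus lay toward Jurkat in the human pair, where both are T-cell lines, and Nme4 lay toward IVA12 in the mouse pair.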

How the data were processed

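The data were 1 bulk messenger RNA library from each of 4 cell lines, grouped by the line named in the labels. Per the study's methods and the submitters' processing notes, reads were aligned with STAR 2.5.1b to the combined human hg19 and mouse mm10 reference of Cell Ranger 1.2.0 and counted with featureCounts 1.6.3, and the authors deposited FPKM per gene for both species in 1 table. The library protocol was a stranded one. Gene lengths, the strand setting of the counting and the treatment of multiply aligned reads are not given in the sources used here.

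Library totals and reads per gene were recovered from the FPKM steps (relative tolerance 1e-12, gene length up to 300000 bases), and the recovered reads came to 98.0% to 99.3% of the totals. A recovered length equal to the annotated one was found for 22.2% (human) and 73.0% (mouse) of genes. Elsewhere a missed common factor would widen the intervals. Levels have exact Poisson, ratios exact binomial and shares Wilson 95% intervals. Ratios used a pseudocount of 1 FPKM. With 1 library per line no test was made, and count models, which need replicates, were not used. Calculations were tested on simulated data.

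The members and lists were chosen with earlier results of these data known. All members are named, and of the other pathway genes the 3 furthest in each direction of each pair with HPRT1, ADK, MTAP and CDA. Some genes of these lists are not reported here. Symbols and positions came from GENCODE v44lift37 (hg19) and vM21 (mm10), and promoters from RefSeq. These GENCODE versions are later than the Ensembl annotations that the study names for its reference. The overlaps and shared windows given here therefore need not apply to the deposited counts. Alternatives were other pseudocounts, filters, thresholds and scalings. Python 3.11.15, NumPy 2.4.6, pandas 2.3.3, SciPy 1.17.1 and matplotlib 3.10.9 were used.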

Additional observations from a re-analysis of the deposited data

Results flagged for a closer look

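Reads on member genes of the species that was not in the library were the signal outside the main comparisons, since such rows should hold none, and each library exceeded the limit of 3 reads that a count of 0 allows. Mouse members had 97 reads in Jurkat and 76 reads in TALL104, and human members had 71 reads in EL4 and 234 reads in IVA12. As a share of all reads this was 0.000279% for Jurkat, 0.000268% for TALL104, 0.000221% for EL4 and 0.000925% (0.000814% to 0.00105%) for IVA12. The highest single gene was PAICS in IVA12, at 0.312 FPKM. Over all genes of the other species the share of reads was 0.0397% for Jurkat, 0.0369% for TALL104, 0.0493% for EL4 and 0.211% for IVA12, so such reads were not limited to the members. The source of these reads was not tested.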

How the results depend on the processing

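All members of the human pair kept their direction under pseudocounts of 0.1 and 0.01 FPKM and under both scalings, and in the mouse pair Dtymk and Psat1, with log2 ratios at 0, changed sign. The human count above 1.5-fold stayed between 34 and 36, and 29 members passed 2-fold. Under both scalings APRT and PNP no longer passed 1.5-fold, so that 31 in place of 33 members were higher in Jurkat. The human median of 1.72 moved to 1.81 among members at or above 5 FPKM in either line, 1.61 when scaled by the median ratio and 1.61 when scaled to equal own-species totals without mitochondrial genes. The mouse count of 14 rose to 32 (17 toward EL4, 15 toward IVA12) when a counting interval that excludes 1 took the place of 1.5-fold, a criterion that passes small ratios at high counts. Of the other mouse pathway genes 18 passed a 2-fold threshold, against 29 at 1.5-fold. The share on members of the other species in IVA12 was 0.000812% as FPKM. The median of the mouse salvage genes was 0.15 and became 1.08 at a pseudocount of 0.1 FPKM, where Nt5e, with 30 and 0 reads, weighs more. No paired analysis was possible because each line has 1 library. No library could be left out, so that differences between lines carry no measure of the spread between cultures. Depth limits the values of Tk1 in EL4, SAMHD1 and CTPS2 in Jurkat and Nt5e in IVA12, which rest on 6 reads or fewer. Stray reads can also be part of such low counts and of the 14 reads of Samhd1 in EL4.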
